A study of Mus musculus with 18 samples.

Results

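The genes of interleukin-7 (IL-7) and common gamma chain signalling were followed over the first steps of thymocyte development in adult and fetal mice. All probe sets annotated to a single one of the genes *Il7r*, *Il2ra*, *Il2rb*, *Il2rg*, *Il4ra*, *Il15ra*, *Jak3*, *Stat5a*, *Stat5b* and *Socs2* were taken, whatever their values. This gave 18 of the 22626 probe sets on the array, for 9 of the 10 genes listed and 9 of the 12393 genes with a probe set of their own. *Il2rg*, which encodes the common gamma chain itself, was named by 0 of the single-gene probe sets and was not analysed here, and 2 probe sets annotated to both *Jak3* and *Insl3* were not used.

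RNA of sorted C57BL/6 thymocytes was hybridised to Affymetrix mouse expression arrays in 6 groups of 3 arrays each, 18 in all. Early thymic progenitors (ETP, CD44+CD25- and c-kit+), DN2 cells (CD44+CD25+) and DN3 cells (CD44-CD25+), all negative for lineage markers, came from adult female mice of 4 to 6 weeks and from embryos. The sample labels place the embryos at E14.5, whereas the methods of the study name a later embryonic day. Each sample held RNA of 80000 cells, pooled from several sorts. By the methods, an adult array pooled more sorts than a fetal array, so that the depth of pooling went with age. The labels call the arrays of a group biological replicates and the methods call them technical, so that the p-values measure the spread between these arrays, which may be technical.

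IL-7 binds a receptor made of the IL-7 receptor alpha chain, encoded by *Il7r*, and the common gamma chain. The kinases Jak1 and Jak3 on the tails of these chains then phosphorylate Stat5a and Stat5b, which enter the nucleus and switch on genes for survival and growth. They also switch on genes for inhibitors of the Socs family, which limit the same signal. The common gamma chain is also part of the receptors for IL-2, IL-4, IL-9, IL-15 and IL-21. IL-7 is known as a cytokine that early thymocytes need to survive and multiply.

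The bases before the transcription start are shown for *Il7r*, *Il2ra* and *Il4ra*, the receptor genes whose values changed with stage. The table of promoters used holds 8 of the 10 genes, with 11 start sites, and *Il2rb* and *Socs2* are not among them. The 250 bases before the start, from RefSeq in build GRCm38.p6, are written 5′ to 3′ on the strand of the gene. Capitals mark matches on either strand to TTCNNNGAA, the palindromic motif of Stat factors, and to AGGAAG, a form of the Ets family motif that reads CTTCCT on the other strand. The motifs do not overlap here.
*Il7r* chr15:9529877-9530126 (- strand): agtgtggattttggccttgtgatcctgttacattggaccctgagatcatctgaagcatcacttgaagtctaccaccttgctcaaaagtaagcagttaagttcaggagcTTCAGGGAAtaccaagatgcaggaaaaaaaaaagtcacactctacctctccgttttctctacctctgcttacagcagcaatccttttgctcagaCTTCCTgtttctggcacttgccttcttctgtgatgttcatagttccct
*Il2ra* chr2:11642542-11642791 (+ strand): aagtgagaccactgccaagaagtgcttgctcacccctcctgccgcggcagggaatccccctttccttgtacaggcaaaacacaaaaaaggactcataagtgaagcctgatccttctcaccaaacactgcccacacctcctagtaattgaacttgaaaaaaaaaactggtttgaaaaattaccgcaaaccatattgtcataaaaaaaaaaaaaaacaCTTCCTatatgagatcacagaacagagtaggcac
*Il4ra* chr7:125552021-125552270 (+ strand): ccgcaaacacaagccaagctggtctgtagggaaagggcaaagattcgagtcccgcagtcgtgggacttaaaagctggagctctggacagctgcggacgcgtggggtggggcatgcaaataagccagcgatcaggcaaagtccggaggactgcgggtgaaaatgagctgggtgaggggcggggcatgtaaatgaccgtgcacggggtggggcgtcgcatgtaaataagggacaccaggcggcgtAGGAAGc

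TTCNNNGAA was found in 1 of the 11 windows, that of *Il7r*, at bases 142 to 134 before the start, and in 7.02% of all 32841 windows of this length in the table. AGGAAG was found in 8 of the 11 windows and in 29.5% of all windows. In *Il7r* it lay at bases 48 to 43, in *Il2ra* at bases 34 to 29 and in *Il4ra* at bases 7 to 2 before the start. A match describes letters only, and binding was not measured. In the same gene annotation *Il2ra* and *Il15ra* are neighbours on chromosome 2 and *Stat5a* and *Stat5b* on chromosome 11, with 0 protein-coding genes between them.

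The deposited values are log2 intensities. They had been processed with GCRMA, which subtracts nonspecific signal and combines the probes of a set, and the median of every row over the 18 arrays is 0. A value therefore says how far an array lay above or below the probe set's own median, and neither the level of a gene nor the absence of a transcript can be read from it. Several arrays stood apart from their labels or groups. In adult DN3, *Xist* was at 1.59 log2 on replicate 1 and at -11.29 and -11.34 log2 on replicates 2 and 3, although the label names female mice. *Cd44*, whose product was gated out in DN3, was at -0.86 log2 on adult DN3 replicate 3 in 1423760_at. That lay within the adult DN2 arrays (-0.97 to 0.44 log2) and far above -7.97 and -7.84 log2 on the other adult DN3 arrays. In the other *Cd44* probe set, 1452483_a_at, adult DN3 was at -0.22, -0.03 and -0.15 log2. Adult DN2 was at -0.26 to 0.30 log2 there, so that replicate 3 did not stand apart. *Kit*, which encodes c-kit, was at -0.003 log2 on adult DN3 replicate 3 in 1452514_a_at. That lay within adult DN2 (-1.33 to 0.003 log2), above -2.58 and -2.09 log2 on the other adult DN3 arrays. In the other *Kit* probe set, 1415900_a_at, adult DN3 was at 0.17, -1.56 and -0.16 log2. Replicates 1 and 3 both lay within adult DN2 there (-0.71 to 0.25 log2). *Ptcra*, a DN3 gene, was at 3.19 log2 on adult DN3 replicate 3. That was closer to the other adult DN3 arrays (4.63 and 4.05 log2) than to adult DN2 (-1.85 to -0.34 log2). The embryonic globin gene *Hbb-y* was lower on the fetal arrays numbered 1 than on the other fetal arrays in each of its 3 probe sets. In 1436717_x_at those arrays were at 5.47 log2 in ETP, 0.05 log2 in DN2 and -0.14 log2 in DN3, against 9.93 to 11.08 log2 on the others. Calls that were lost without these arrays are named beside the results.

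*Il7r* rose from ETP to DN2 at both ages, in fetal cells with a call in only 1 of its 2 probe sets. *Il2ra*, whose product CD25 was itself used to sort these stages apart, also rose at both ages. *Il4ra* fell from ETP to DN3 at both ages, and *Socs2* was far higher in fetal than in adult ETP and rose steeply in adult cells on entry into DN2. Called means here an adjusted p below 0.05 in limma, over all 22626 probe sets, together with a difference of 1.8-fold or more. Differences are between group means on the log2 scale and are given ± SE from the limma fit, with n = 3 arrays per group throughout. Over the 6 groups, 8 of the 18 probe sets, of 5 genes, were regulated by limma's moderated F test and the same limit on the fold, beside 16.8% of all probe sets. They were both probe sets of *Il7r*, *Il2ra* and *Socs2*, 1 of 3 of *Il4ra* and 1 of 2 of *Stat5b*.

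From ETP to DN2, 6 of the 18 probe sets rose in adult cells, beside 6.07% of all probe sets, and 3 rose in fetal cells, beside 0.972% of all. At each age 2 of these probe sets were those of *Il2ra*, on which the gates were set, and they are among the 5 and 4 that rose from ETP to DN3. From ETP to DN3, 5 rose and 1 fell in adult cells, where 10.8% of all were called, and 4 rose and 1 fell in fetal cells, where 5.45% were called. Between DN2 and DN3, limma called 0 of 18 in adult cells, with 0.928% of all called, and 0 in fetal cells, with 2.47% of all called, and 4 and 2 had an unadjusted p under 0.05, as had 10.9% and 9.17% of all. Without adult DN3 replicate 3 the adult count was 3, and that over all probe sets went from 210 to 520.

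Fetal exceeded adult ETP in 3 of the 18 probe sets, beside 8.49% of all probe sets. At DN2 and DN3 limma called 0 of 18, beside 3.44% and 2.77% of all, and 3 had an unadjusted p under 0.05 at each stage, as had 14.4% and 10.2% of all. The change from ETP to DN2 differed between fetal and adult cells in 1 of 18, an *Il7r* probe set, beside 0.796% of all. For the change from DN2 to DN3 limma called 0, beside 0.548% of all, and for that from ETP to DN3 it called 0, beside 2.49% of all, with 2 at an unadjusted p under 0.05 each, as had 6.22% and 12.5% of all. The comparisons share arrays, since each group enters several of them, and are not independent of each other.

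**Figure D1:**
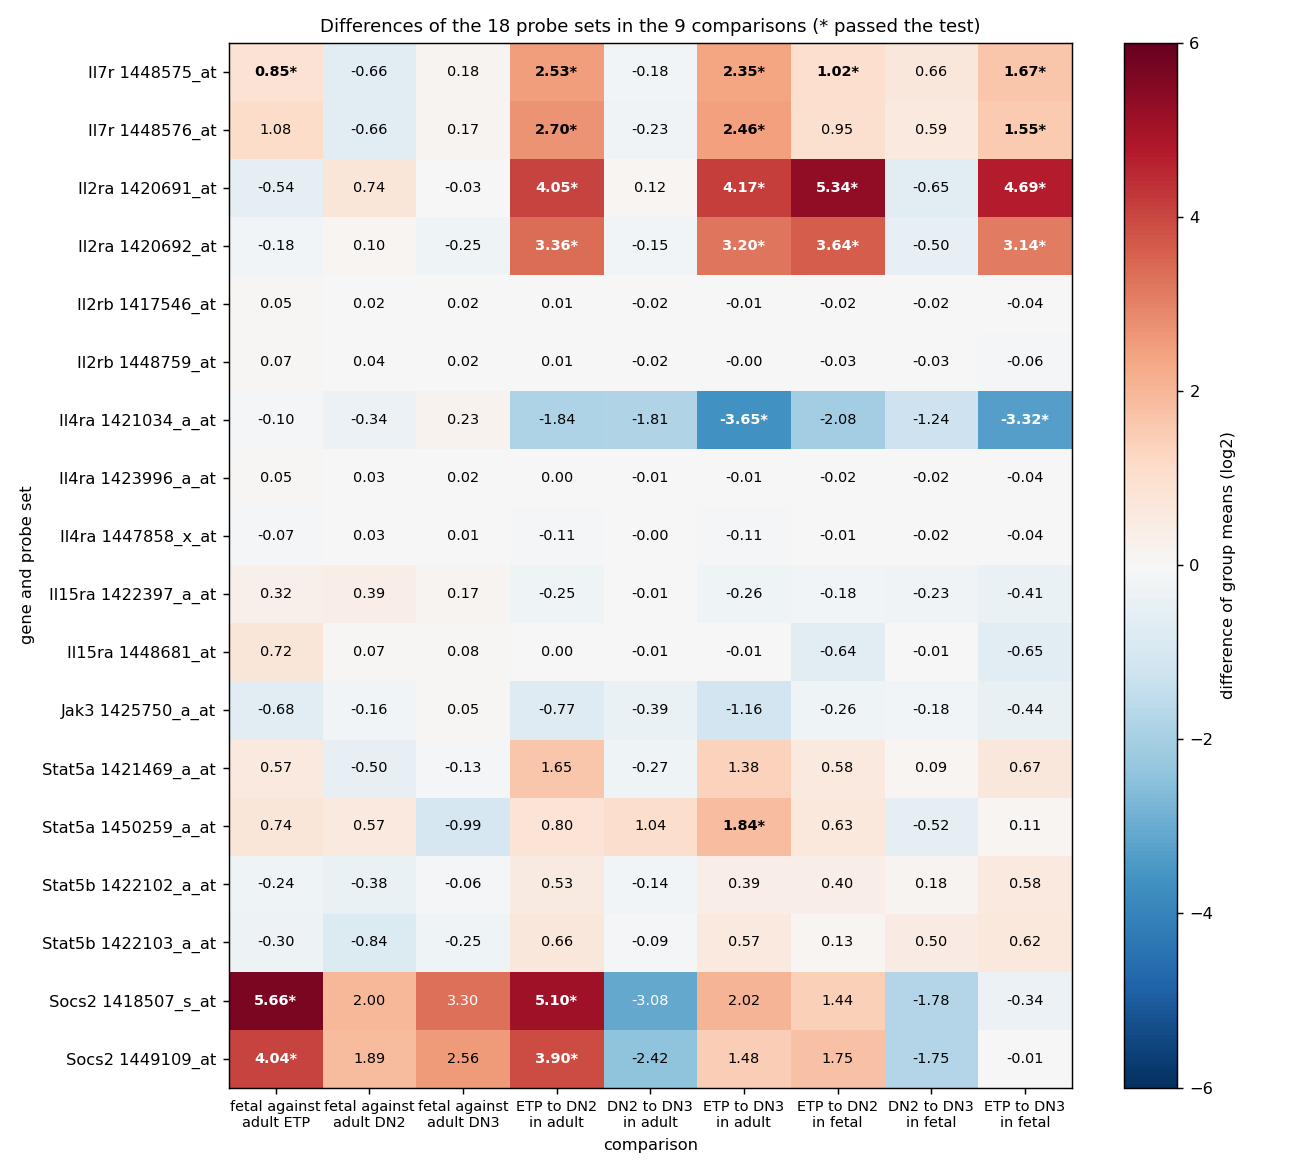
Differences between group means (log2, colour and number) of the 18 probe sets (vertical axis) in the 9 comparisons (horizontal axis), where the first group named or the later stage is higher for positive values and an asterisk marks a call. Asterisks stand in the rows of *Il7r*, *Il2ra*, *Socs2*, 1 row of *Il4ra* and 1 of *Stat5a*, and the *Il2rb* rows stay between -0.06 and 0.075 log2.

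*Il7r*, the chain that makes a cell responsive to IL-7, was lowest in adult ETP. Its probe set 1448575_at was at -2.09, -2.17 and -2.04 log2 on the adult ETP arrays and at -1.29, -1.31 and -1.14 log2 on the fetal ETP arrays. In DN2 it was at 0.54, 0.23 and 0.53 log2 in adult and at 0.01, -0.57 and -0.14 log2 in fetal cells. In DN3 it was at 0.36, -0.01 and 0.39 log2 in adult and at 0.42, 0.37 and 0.48 log2 in fetal cells. The ages did not overlap at ETP, where the fetal arrays were the higher ones, or at DN2, where the adult arrays were, and they overlapped at DN3.

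In adult cells *Il7r* rose from ETP to DN2 by 2.53 ± 0.14 log2 (limma adjusted p = 1.21e-07), and the step from DN2 to DN3 was -0.18 ± 0.14 log2 (adjusted p = 0.786). In fetal cells the rise to DN2 was 1.02 ± 0.14 log2 (limma adjusted p = 0.00195), and the step to DN3 of 0.66 ± 0.14 log2 passed the p limit (adjusted p = 0.0213) but not the fold limit. The fetal call at DN2 was lost with array weights (0.83 log2), from the arrays of these 2 groups alone (1.02 log2) and without the fetal arrays numbered 1 (0.87 log2). From ETP to DN3 the whole rise was called at both ages, at 2.35 ± 0.14 log2 for adult and 1.67 ± 0.14 log2 for fetal arrays.

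The first step itself differed with age. The fetal change of *Il7r* from ETP to DN2 was smaller than the adult change, fetal minus adult -1.51 ± 0.20 log2 (limma adjusted p = 0.00155), and stayed called without each of the 18 arrays in turn (-1.64 to -1.35 log2). For the step from DN2 to DN3 the same difference was 0.84 ± 0.20 log2 and missed the call (adjusted p = 0.11), except without fetal DN2 replicate 1 (0.96 log2) and with array weights (1.07 log2). For the course from ETP to DN3 it was -0.67 ± 0.20 log2 (adjusted p = 0.111).

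Fetal exceeded adult ETP in this probe set by 0.85 ± 0.14 log2 (limma adjusted p = 0.00166), which lies at the fold limit. The call was lost without adult ETP replicate 2 (0.81 log2) or fetal ETP replicate 3 (0.80 log2), and with each array centred on its median (0.78 log2). In DN2 the fetal value was lower by 0.66 log2 (-0.66 ± 0.14, adjusted p = 0.0165), which passed the p limit but not the fold limit. In DN3 the difference was 0.18 log2 with a 95% interval from -0.12 to 0.48 log2.

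The second *Il7r* probe set, 1448576_at, followed the first over the 18 arrays (r = 0.951) with more spread. It was at -2.64, -2.22 and -1.64 log2 in adult ETP, at -0.12, 0.52 and 1.20 log2 in adult DN2 and at 0.07, 0.22 and 0.59 log2 in adult DN3. The fetal arrays were at -1.17, -1.36 and -0.73 log2 in ETP, at 0.21, -0.54 and -0.07 log2 in DN2 and at 0.55, 0.18 and 0.65 log2 in DN3. Its rise from ETP to DN2 was 2.70 ± 0.33 log2 in adult cells and was called, and 0.95 ± 0.33 log2 in fetal cells and was not (adjusted p = 0.466). It gave an excess of fetal over adult ETP of 1.08 ± 0.33 log2 (limma adjusted p = 0.055) and a difference between the steps of -1.74 ± 0.47 log2 (adjusted p = 0.164), the same directions as the first probe set without a call. Its rise from fetal ETP to DN3 was called, but not without fetal ETP replicate 2 alone, nor without the fetal arrays numbered 1 (1.46 log2). With both probe sets averaged, limma called the excess in fetal ETP (0.96 ± 0.21 log2, adjusted p = 0.00726) and the difference between the steps (-1.63 ± 0.29 log2, adjusted p = 0.011).

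The genes whose values followed 1448575_at most closely over the 18 arrays, which share stage and age, were *Entpd5* (r = 0.978), *Marcks* (r = 0.955) and *Bcl11b* (r = 0.952), the last a transcription factor gene of T cell commitment. For 1448576_at they were *Sec24d* (r = 0.956), *Entpd5* (r = 0.933) and *Nck2* (r = 0.931). Markers of other cells differed in the same arrays. In adult ETP the mean of 9 of 10 measured macrophage and granulocyte genes was at 2.96 to 3.60 log2, against 0.86 to 1.20 log2 in fetal ETP. The mean of 7 of 8 dendritic cell and MHC class II genes was at 4.22 to 5.08 log2 in adult ETP and at 0.97 to 1.05 log2 in fetal ETP. The mean of 8 of 10 T lineage genes was at -6.08 to -4.84 log2 in adult ETP and at -2.87 to -1.67 log2 in fetal ETP, and 9 of 10 natural killer and innate lymphoid genes averaged -0.80 to -0.09 log2 and 1.11 to 1.46 log2. Between the ETP groups, limma called 7 of 11, 8 of 11, 5 of 8 and 3 of 12 probe sets in this order. Of all probe sets, 8.49% were called. The part of these markers in the *Il7r* values was not tested, and fewer *Il7r* expressing cells and less *Il7r* RNA per cell cannot be told apart in RNA of sorted populations.

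**Figure D2:**
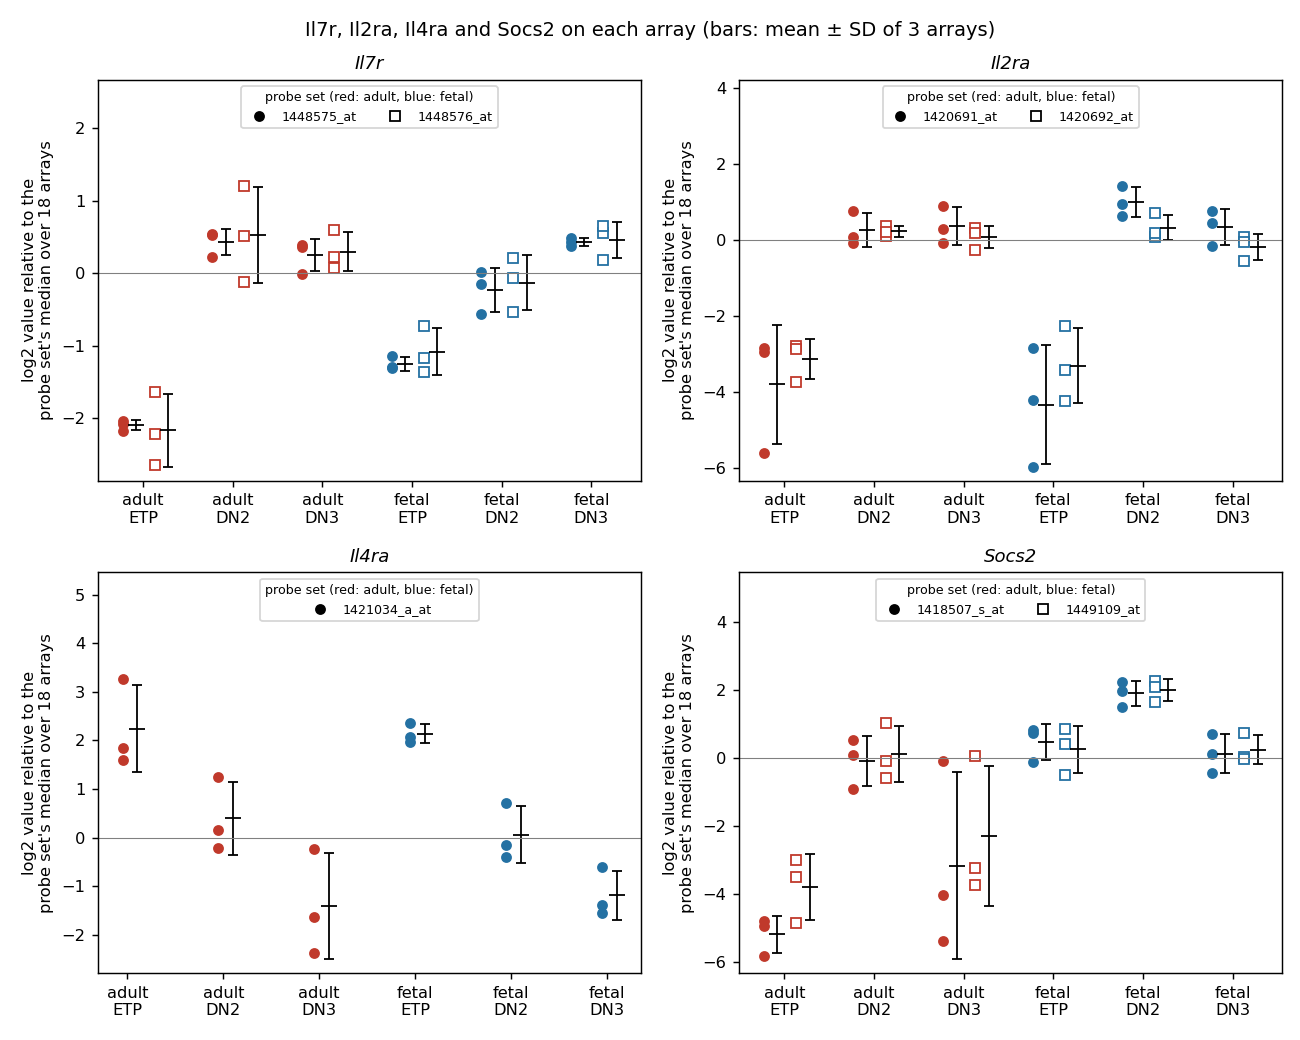
Values of *Il7r*, *Il2ra*, *Il4ra* and *Socs2* (vertical axes, log2 relative to the median of the probe set over 18 arrays) in the 6 groups (horizontal axes), adult in red and fetal in blue, with each point an array and bars for the mean ± SD of 3 arrays. *Il7r* is lowest in adult ETP, *Il4ra* falls with stage at both ages, and *Socs2* is at -5.41 and -4.03 log2 on adult DN3 replicates 1 and 2 but at -0.10 log2 on replicate 3 (1418507_s_at).

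*Il2ra* encodes CD25, the IL-2 receptor alpha chain and the antigen that separated ETP from the later stages in the sort, so its rise is a check of the gates rather than a result. Probe set 1420692_at was at -3.74, -2.80 and -2.88 log2 in adult ETP and at -2.28, -3.43 and -4.25 log2 in fetal ETP. On all 12 arrays of DN2 and DN3 both probe sets lay between -0.57 and 1.41 log2, above every ETP array. From ETP to DN2 the rise was 3.36 ± 0.40 log2 for adult and 3.64 ± 0.40 log2 for fetal arrays, and by 1420691_at it was 4.05 ± 0.77 and 5.34 ± 0.77 log2, all called. The ages overlapped at each stage. For 1420692_at, fetal minus adult was -0.18 log2 in ETP, 0.10 log2 in DN2 and -0.25 log2 in DN3, with 95% intervals that reach from -1.12 to 0.97 log2 at most. On adult DN3 replicate 3, whose *Cd44* 1423760_at was at the DN2 value, *Il2ra* was at 0.17 and 0.28 log2, within the other DN2 and DN3 arrays. The closest genes over the 18 arrays were *Nck2*, *Fyb* and *Gbp8* for 1420692_at (r = 0.915 to 0.907) and *Rgcc*, *Fyb* and *Tubb3* for 1420691_at (r = 0.916 to 0.875).

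*Il4ra*, the chain that pairs with the common gamma chain to bind IL-4, ran opposite to *Il7r*. Its probe set 1421034_a_at was at 3.26, 1.60 and 1.85 log2 in adult ETP and at 2.35, 2.08 and 1.97 log2 in fetal ETP. It was at -0.21, 1.24 and 0.16 log2 in adult DN2 and at -0.40, 0.72 and -0.16 log2 in fetal DN2. In DN3 it was at -1.64, -2.38 and -0.23 log2 in adult and at -0.61, -1.55 and -1.40 log2 in fetal cells. The 3 stages did not overlap within either age, and the 2 ages overlapped at each stage.

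From ETP to DN3, *Il4ra* fell 12.6-fold in adult cells (-3.65 ± 0.57 log2, limma adjusted p = 0.000761) and 9.99-fold in fetal cells (-3.32 ± 0.57 log2, adjusted p = 0.00235). Both calls held without each array in turn, with ranges of -4.25 to -3.14 and of -3.61 to -3.14 log2. The single steps were not called, with -1.84 and -1.81 log2 in adult cells (adjusted p = 0.0748 and 0.186) and -2.08 and -1.24 log2 in fetal cells (adjusted p = 0.182 and 0.544). Adult DN3 replicate 3 lay just below the lowest adult DN2 array for *Il4ra*, and without it both adult steps were called (-1.84 and -2.40 log2). The first adult step was also called without adult DN2 replicate 2 (-2.27 log2). Fetal minus adult was -0.10 log2 in ETP, with a 95% interval from -1.34 to 1.14 log2.

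The closest genes to *Il4ra* over the 18 arrays were *Spns2* (r = 0.950), *Tspan32* (r = 0.946) and *Mpo* (r = 0.945), the last encoding the granule enzyme myeloperoxidase of granulocytes. The macrophage and granulocyte genes fell along the same stages, with means of 2.96 to 3.60 log2 in adult ETP and -0.84 to 0.07 log2 in adult DN3, and of 0.86 to 1.20 log2 in fetal ETP and -1.20 to -1.05 log2 in fetal DN3. They differed between the ages at ETP, where *Il4ra* overlapped, and their part in the *Il4ra* values was not tested. The other *Il4ra* probe sets, 1423996_a_at and 1447858_x_at, did not follow 1421034_a_at. They spanned 0.11 and 0.25 log2 over all 18 arrays, which says nothing of the gene's level.

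*Il2rb*, the signalling chain shared by the IL-2 and IL-15 receptors, was flat in both of its probe sets. The values of 1417546_at lay between -0.06 and 0.04 log2 and those of 1448759_at between -0.09 and 0.07 log2 on all 18 arrays. They followed the median of all probe sets on each array (r = 0.915 and 0.986 over 18 arrays), as did *Il4ra* 1423996_a_at (r = 0.934). *Il4ra* 1447858_x_at, also flat, did not (r = 0.049), and the cause was not tested. No difference of *Il2rb* between groups was called, the widest being 0.075 log2 (fetal minus adult ETP, 1448759_at). Both *Il2rb* and both flat *Il4ra* probe sets were among those that a filter on small SD removes.

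*Il15ra*, the chain that presents IL-15, was near its median on most arrays. Probe set 1448681_at was at 0.64, 1.41 and 0.03 log2 in fetal ETP, and on the other 15 arrays between -0.08 and 0.14 log2. Fetal minus adult ETP was 0.72 ± 0.23 log2 (limma adjusted p = 0.0604), and without fetal ETP replicate 3 it was 1.05 log2 and called. The second probe set, 1422397_a_at, was at 0.05, 1.19 and 0.03 log2 in fetal ETP and at -0.01, 0.42 and -0.10 log2 in adult ETP. In both groups the array numbered 2 was the high one, and the difference of 0.32 ± 0.28 log2 was not called (adjusted p = 0.389).

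*Jak3* encodes the kinase bound to the common gamma chain. Its single probe set, 1425750_a_at, was at 2.71, -0.07 and 0.70 log2 in adult ETP and at 0.01, 1.34 and -0.04 log2 in fetal ETP. Both ETP groups spread over more than the difference of -0.68 log2 between their means. In DN2 it was at 0.43, 0.70 and -0.10 log2 in adult and at -0.01, 0.59 and -0.04 log2 in fetal cells, and in DN3 all 6 arrays lay between -0.19 and 0.11 log2. The widest difference, from adult ETP to adult DN3, was -1.16 ± 0.56 log2 (limma adjusted p = 0.24), and none of the 9 comparisons was called here or under any alternative tried.

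*Stat5a* and *Stat5b* encode the transcription factors that carry the IL-7 signal to the nucleus. The probe set 1450259_a_at of *Stat5a* was at -0.04, -1.10 and -1.13 log2 in adult ETP, at -0.10, 0.27 and -0.05 log2 in adult DN2 and at -0.09, 1.45 and 1.89 log2 in adult DN3. The fetal arrays were at -0.06, 0.02 and -0.02 log2 in ETP, at 0.08, 1.18 and 0.57 log2 in DN2 and at -0.04, 0.05 and 0.25 log2 in DN3. The arrays numbered 1 spanned only 0.18 log2 over the 6 groups (-0.10 to 0.08 log2), so that every change rests on replicates 2 and 3. The labels do not say what a number stands for.

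The rise of this probe set from adult ETP to adult DN3, 1.84 ± 0.43 log2 (limma adjusted p = 0.0124), was called although the arrays overlapped. The call was lost without adult ETP replicate 2 (1.67 log2) or 3 (1.66 log2) and without adult DN3 replicate 2 (1.66 log2) or 3 (1.44 log2). Without adult DN3 replicates 2 and 3 together, whose *Xist* went against the label, it was 0.67 log2. In fetal cells the same step was 0.11 ± 0.43 log2 (adjusted p = 0.902), and the difference between the ages was not called (-1.73 ± 0.61 log2, adjusted p = 0.213), except without adult DN3 replicate 1 (-2.32 log2) and with array weights (-2.48 log2). At DN3 itself fetal minus adult was -0.99 log2 and was not called, except without adult DN3 replicate 1 (-1.58 log2).

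The other *Stat5a* probe set, 1421469_a_at, was at 0.14, -2.44 and -0.79 log2 in adult ETP and at 0.73, 1.39 and -0.26 log2 in adult DN2. Its adult rise from ETP to DN2 was 1.65 ± 0.58 log2 and was not called (limma adjusted p = 0.123), except without adult ETP replicate 1 (2.24 log2). In fetal cells the step was 0.58 ± 0.58 log2 (adjusted p = 0.951). With both probe sets averaged, limma called the rise of *Stat5a* from adult ETP to DN3 (1.61 log2).

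*Stat5b* 1422103_a_at was regulated over the 6 groups (limma F test, adjusted p = 0.0395), with group means that spanned 0.96 log2, but was not called in any of the 9 comparisons. It was at 0.51, 0.59 and 0.16 log2 in adult DN2 and at -0.34, -0.76 and -0.16 log2 in fetal DN2. The ages did not overlap there, and fetal minus adult was -0.84 ± 0.24 log2 (adjusted p = 0.0808), 1.79-fold and just under the limit. In ETP it was at 0.31, -0.68 and -0.36 log2 in adult and at -0.71, -0.72 and -0.19 log2 in fetal cells, and in DN3 all 6 arrays lay between -0.07 and 0.59 log2. The probe set 1422102_a_at was not regulated (adjusted p = 0.438), and fetal minus adult in DN2 was -0.38 ± 0.33 log2. The closest genes to 1422103_a_at were *Stk11* (r = 0.942), *Cerk* (r = 0.871) and *Ip6k1* (r = 0.838).

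**Figure D3:**
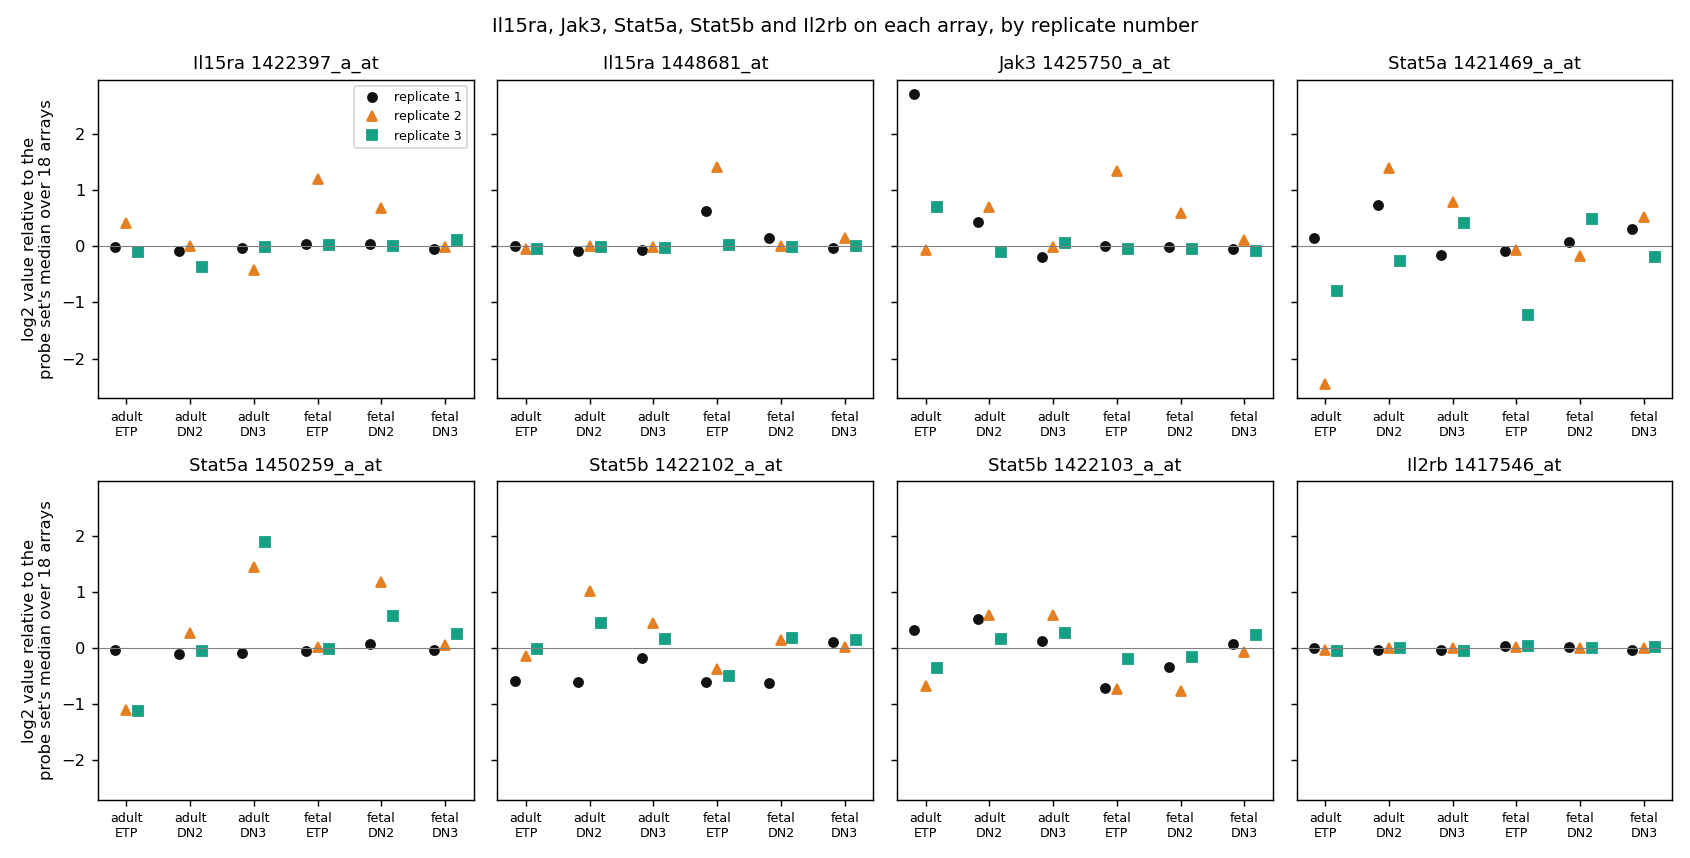
Values of *Il15ra*, *Jak3*, *Stat5a*, *Stat5b* and 1 *Il2rb* probe set (vertical axes, log2 relative to the median of the probe set over 18 arrays) on each array of the 6 groups (horizontal axes), with a symbol for each replicate number. The arrays numbered 1 of *Stat5a* 1450259_a_at stay between -0.10 and 0.08 log2 in all groups, and *Il2rb* stays between -0.06 and 0.04 log2 on all 18 arrays.

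*Socs2*, an inhibitor of cytokine signalling that Stat5 induces, had the widest difference between fetal and adult cells among the 18 probe sets. Probe set 1418507_s_at was at -4.95, -4.81 and -5.83 log2 in adult ETP and at 0.73, 0.81 and -0.14 log2 in fetal ETP. It was at 0.54, 0.10 and -0.92 log2 in adult DN2 and at 2.23, 1.98 and 1.50 log2 in fetal DN2. In DN3 it was at -5.41, -4.03 and -0.10 log2 in adult and at 0.12, 0.69 and -0.44 log2 in fetal cells. The fetal arrays lay above the adult ones at ETP and DN2 without overlap, and at DN3 a single adult array reached the fetal ones.

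Fetal exceeded adult ETP by 5.66 ± 0.97 log2, 50.6-fold (limma adjusted p = 0.00221). The call held without each of the 18 arrays in turn (5.34 to 5.96 log2). By the probe set 1449109_at the excess was 4.04 ± 0.83 log2 (adjusted p = 0.00681) and held without each array in turn (3.50 to 4.44 log2), and that call was lost without the 3 fetal arrays numbered 1 (3.97 log2). The suffix of 1418507_s_at marks a probe set whose probes may also match transcripts of other genes, while 1449109_at carries no such mark. The suffix _x_at, on some probe sets named below, is a mark of the same kind.

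In adult cells *Socs2* rose from ETP to DN2 by 5.10 ± 0.97 log2 (limma adjusted p = 0.00551) and by 3.90 ± 0.83 log2 in 1449109_at (adjusted p = 0.0106), the latter not called from the arrays of these 2 groups alone. In fetal cells the same step was 1.44 ± 0.97 and 1.75 ± 0.83 log2 (both with adjusted p = 0.951). Fetal minus adult, these steps differed by -3.66 ± 1.37 log2, which missed the call (adjusted p = 0.466), and by -2.15 ± 1.17 log2 in 1449109_at (adjusted p = 0.826). From the arrays of the compared groups alone, and without adult DN3 replicate 3, the first of these was called at the same size. The pooled spread of *Socs2* holds the adult DN3 group, whose SD of 2.76 log2 was the largest of any group for the 18 probe sets.

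That spread came from 1 array. On adult DN3 replicate 3 both probe sets were within the adult DN2 arrays, at -0.10 and 0.05 log2, as *Cd44* 1423760_at and *Kit* 1452514_a_at were. Without it, *Socs2* fell from adult DN2 to adult DN3 (-4.62 log2, and -3.61 log2 in 1449109_at), and fetal exceeded adult DN3 by 4.84 log2 (3.74 in 1449109_at), all called by limma. With it, these differences were -3.08 and -2.42 log2 (adjusted p = 0.183 and 0.231) and 3.30 and 2.56 log2 (adjusted p = 0.115 and 0.169). Without adult DN3 replicates 2 and 3 together, fetal exceeded adult DN3 by 5.53 and 4.00 log2, and the lone adult array was assumed to vary like the other groups. What sets replicate 3 apart was not tested.

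In DN2 the fetal excess of *Socs2* was 2.00 ± 0.97 and 1.89 ± 0.83 log2, and neither was called (limma adjusted p = 0.387 and 0.306). The first was called without adult DN3 replicate 3, at the same size, and both were called with array weights (2.68 and 2.43 log2). From fetal DN2 to fetal DN3 the step was -1.78 and -1.75 log2, without overlap between the arrays and without a call (adjusted p = 0.737 and 0.568). The closest genes to *Socs2* over the 18 arrays were *Eme1*, *Gyg* and *Cenpa* for 1418507_s_at (r = 0.944 to 0.927) and *Gyg*, *Tktl1* and *Tuba8* for 1449109_at (r = 0.928 to 0.899). *Cenpa* encodes the histone of centromeres and *Eme1* a subunit of a nuclease that resolves DNA joints.

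Other genes of the pathway were counted from lists in the same 9 comparisons. Of 16 probe sets of 11 other cytokine and receptor genes, 3 were regulated over the 6 groups, beside 16.8% of all probe sets. Not all of these 11 act through the common gamma chain. *Il15* fell from adult ETP to DN2 (-3.93 ± 0.65 log2, limma adjusted p = 0.00208) and to DN3 (-4.98 ± 0.65 log2, adjusted p = 0.000177). It was at 4.74, 3.69 and 4.65 log2 in adult ETP and at 2.72, 2.68 and 0.33 log2 in fetal ETP. The excess in adult ETP was called (fetal minus adult -2.45 ± 0.65 log2, adjusted p = 0.028), but not without adult ETP replicate 1 or 3 or fetal ETP replicate 3, nor without the fetal arrays numbered 1 (-2.86 log2). In fetal cells *Il15* fell from ETP to DN3 (-2.93 ± 0.65 log2, adjusted p = 0.0132), a call lost without any of 3 arrays and without the fetal arrays numbered 1 (-2.45 log2). *Crlf2*, the receptor chain for TSLP, a cytokine that also signals through *Il7r*, was lower in fetal than in adult ETP (-1.22 ± 0.36 log2, adjusted p = 0.046), a call lost without any of 14 of the 18 arrays, and it fell from ETP to DN3 in adult cells (-1.49 ± 0.36 log2, adjusted p = 0.0137), a call that needed both adult ETP replicate 3 and adult DN3 replicate 2. *Il21r*, the IL-21 receptor chain, was lower in fetal than in adult DN2 (-1.37 ± 0.33 log2, adjusted p = 0.0331), a call lost without any of 4 arrays. The *Crlf2* call in ETP and the *Il21r* call in DN2 were also lost without the fetal arrays numbered 1 (-1.30 and -1.42 log2) and, at the same size, without adult DN3 replicates 2 and 3, which also ended the adult *Crlf2* fall to DN3 (-1.37 log2).

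Of 14 probe sets of 7 other Jak kinases and Stat factors, 1 was higher and 2 were lower in fetal than in adult ETP, where 8.49% of all probe sets were called. They were *Stat3* (1.29 ± 0.38 log2), *Jak1*, which binds the *Il7r* chain (-1.64 ± 0.47 log2), and *Stat4* (-0.86 ± 0.25 log2), with limma adjusted p-values of 0.0475, 0.0408 and 0.042. These calls were lost without any of 13, 9 and 10 of the 18 arrays. *Stat3* and *Jak1* each have 3 probe sets, of which the other 2 were not called, and the mean of the probe sets was not called for either gene (0.39 and -0.55 log2). Without the fetal arrays numbered 1 the *Stat3*, *Jak1* and *Stat4* calls in ETP were lost (1.21, -1.92 and -0.74 log2), and that of *Jak1* also without adult DN3 replicates 2 and 3. *Stat4* also fell from adult ETP to adult DN3 (-1.18 ± 0.25 log2, adjusted p = 0.00594).

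Of 27 probe sets of 12 other Socs proteins, phosphatases and adaptors that limit the signal, 6 were regulated, beside 16.8% of all probe sets. Over the course from ETP to DN3, *Socs3*, another inhibitor of cytokine receptors, rose at both ages in 1455899_x_at (adult 3.68 ± 0.64 log2, fetal 5.33 ± 0.64 log2, limma adjusted p = 0.00162 and 0.000117). In 1456212_x_at the rises were 3.29 and 4.77 log2, and all 4 calls held without each array in turn, while the third *Socs3* probe set, 1416576_at, was called in no comparison. Both called probe sets carry the suffix _x_at, and 1416576_at does not. *Socs5* 1423350_at fell over the same course (-1.53 ± 0.20 and -1.61 ± 0.20 log2), also called without each array in turn. In a second *Socs5* probe set, 1423349_at, the fetal fall was called (-1.09 ± 0.22 log2), but not without the fetal arrays numbered 1 (-1.20 log2). *Socs4* rose from ETP to DN3 in adult cells in 1421275_s_at (1.10 ± 0.23 log2), a call lost without adult DN3 replicates 2 and 3 (0.52 log2), and its other 2 probe sets were not called. *Cish*, another Stat5-induced inhibitor, was at 0.53, -0.11 and 0.87 log2 in adult ETP and at -0.98, -1.10 and -1.39 log2 in fetal ETP. Its fetal minus adult difference of -1.59 ± 0.46 log2 ran opposite to that of *Socs2* and was called (adjusted p = 0.0419), a call lost without any of 12 of the 18 arrays, without the fetal arrays numbered 1 (-1.67 log2) and without adult DN3 replicates 2 and 3.

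Of 52 probe sets of 18 of 19 survival, growth and cell cycle genes downstream of IL-7 (*Osm* was not analysed here), 13 were regulated, beside 16.8% of all probe sets. From adult ETP to DN2, 1 rose and 8 fell, where 6.07% of all were called, and from fetal ETP to DN2 1 fell, where 0.972% were. The one that rose was *Ccnd3*, a D cyclin of the cell cycle, by 2.73 ± 0.29 log2 (limma adjusted p = 6.12e-05). It was between -1.94 and -1.003 log2 in adult ETP, at -0.13, 0.05 and -0.84 log2 in fetal ETP, at 1.20, 1.65 and 0.82 log2 in adult DN2 and at 0.44, 0.54 and -0.05 log2 in fetal DN2. Like *Il7r*, it was higher in fetal than in adult ETP (1.20 ± 0.29 log2, adjusted p = 0.0182) and changed less from ETP to DN2 in fetal cells (fetal minus adult -2.12 ± 0.41 log2, adjusted p = 0.0298). These calls were lost without any of 4 and 9 of the 18 arrays and without the fetal arrays numbered 1 (1.12 and -2.10 log2), the second also without adult DN3 replicates 2 and 3. Unlike *Il7r*, it was called lower in fetal than in adult DN3 (-1.30 ± 0.29 log2, limma adjusted p = 0.0265). That call was lost without any of 4 arrays.

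*Bcl6*, a repressor that Stat5 can switch off, fell from adult ETP to DN2 (-4.01 ± 0.44 log2, limma adjusted p = 7.99e-05) and was lower in fetal than in adult ETP (-3.27 ± 0.44 log2, adjusted p = 0.000425). Both calls held without each array in turn, and the other *Bcl6* probe set was flat. *Mycn*, a growth regulator of the Myc family, fell from adult ETP to DN2 in 1417155_at (-1.64 ± 0.39 log2, adjusted p = 0.0213, a call lost without replicate 1 of either group and in the mean of its 3 probe sets, -0.56 log2), and from ETP to DN3 at both ages (adult -2.62 ± 0.39 log2, fetal -4.24 ± 0.39 log2). The other *Mycn* probe sets were called in no comparison. *Ccnd2*, another D cyclin, fell from adult ETP to DN2 in 3 of its 7 probe sets (-1.22 to -1.10 log2). In 1 of these, 1448229_s_at, the call was lost without any of 16 of the 18 arrays, without the fetal arrays numbered 1 and without adult DN3 replicates 2 and 3. At DN3, 4 probe sets of this list were lower in fetal than in adult cells and 0 higher, where 2.77% of all were called. Beside *Ccnd3* they were *Bcl6* (-2.03 log2), *Mycn* 1417155_at (-1.59 log2) and *Ccnd2* 1434745_at (-1.15 log2). The *Bcl6* and *Mycn* calls were lost without any of 5 and 16 arrays. Only the loss of single arrays is given for these 4 calls.

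From adult ETP to DN3, 4 probe sets of this list rose and 3 fell, where 10.8% of all probe sets were called. The widest difference was that of *Akt1*, a kinase of growth and survival, whose probe set 1425711_a_at was at -0.87, -3.81 and -4.80 log2 in adult ETP and at -0.63, 1.20 and 0.89 log2 in adult DN3. The rise of 3.65 ± 1.03 log2 was called (limma adjusted p = 0.0318) but lost without adult ETP replicate 2 or 3 or adult DN3 replicate 2 or 3, without both of the latter (2.54 log2) and without the fetal arrays numbered 1. Its other probe set was not called. *Bcl2l11*, which encodes the death protein Bim, rose from fetal ETP to DN3 by 1.48 ± 0.28 log2 in 1435449_at and by 1.40 ± 0.37 log2 in 1435448_at, the second call lost without any of 13 arrays and both lost without the fetal arrays numbered 1 (1.47 and 1.23 log2). In adult cells 1435449_at rose over the same course (1.14 ± 0.28 log2, limma adjusted p = 0.0144), a call lost without adult DN3 replicate 2. Probe sets of *Bcl2l11* other than 1435449_at and 1435448_at were called in no comparison.

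In fetal against adult ETP, 1 probe set of this list was higher and 5 were lower, where 8.49% of all probe sets were called. *Foxo1*, a transcription factor that drives *Il7r* in T cells, was lower in fetal ETP in 1416983_s_at (-1.34 ± 0.26 log2, limma adjusted p = 0.00428), and its other 3 probe sets were not called. *Mcl1*, a survival gene, was lower in 3 of its 6 probe sets (-1.28 to -1.18 log2), and these calls held without each array in turn but not in the mean of all 6 (-0.54 log2). These 3 carry the suffix _x_at. Another *Mcl1* probe set, 1416881_at, was named after its values were seen, because it ran the other way over the adult stages. It rose from ETP to DN3 (1.33 log2) but not without adult DN3 replicate 2 (0.88 log2) or replicates 2 and 3 (1.14 log2), while the first 3 fell from ETP to DN2 (-1.14 to -0.93 log2). Of these falls 2 were lost without adult DN2 replicate 3, and the mean of all 6 was not called (-0.50 log2).

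**Figure D4:**
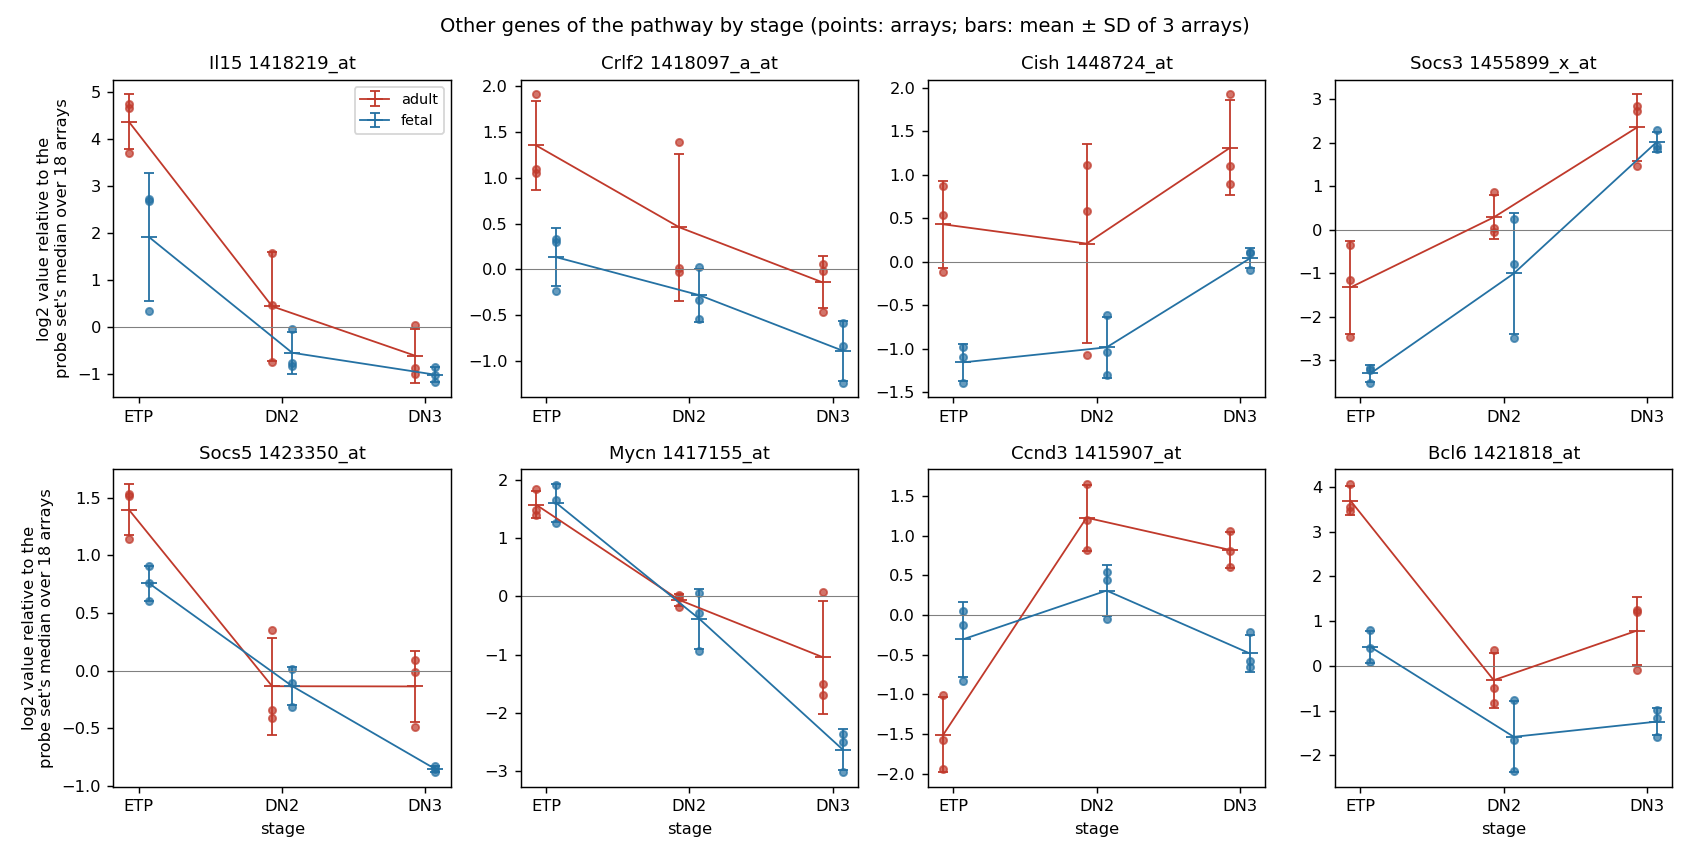
Values of 8 other genes of the pathway (vertical axes, log2 relative to the median of the probe set over 18 arrays) in ETP, DN2 and DN3 (horizontal axes), adult in red and fetal in blue, with points for arrays and bars for the mean ± SD of 3 arrays. *Il15*, *Socs5*, *Mycn* and *Bcl6* are highest in ETP, *Socs3* is highest in DN3 at both ages, and *Ccnd3* climbs from -1.51 to 1.23 log2 between adult ETP and DN2.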

How the data were processed

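The authors deposited log2 values of Affymetrix arrays, which they had made with GCRMA, per the labels and the methods of the study, and per the file each row is centred on its median over the 18 arrays. No row had a missing value, and the number of arrays limits the precision. Of 22626 probe sets, 20380 name 1 gene in the annotation used, 691 several and 1555 none, and *Il2rg* was not analysed here.

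A model of 6 group means was fitted to all probe sets with limma 3.58.1 in R 4.3.3 (lmFit and eBayes, without a filter), with Benjamini-Hochberg adjustment over all of them. A call needed an adjusted p under 0.05 and 1.8-fold. The steps were tested on simulated data. The members and gene lists were chosen with earlier results of these data known. All probe sets of the members are reported, with the 3 genes of highest Pearson r to each regulated one. From each pathway list at most 4 called probe sets per comparison given were named, by size, beside further probe sets of the same genes and those said to be chosen after their values were seen.

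Same-numbered arrays deviated together (every r above 0.1) in 5 of the 9 comparisons, fetal against adult DN2, adult DN2 to DN3 and all 3 fetal ones. The blocked fit, array weights, array centring, other fold limits, robust eBayes, a filter on SD, gene means, the compared groups alone, ANOVA and left-out arrays were alternatives. Of the marker lists, B lineage array means ranged from -0.28 to 0.15 log2, thymic epithelium from -0.81 to 0.49 log2, and erythroid from -0.11 to 0.01 log2 in adult and 0.01 to 2.12 log2 in fetal arrays.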

Additional observations from a re-analysis of the deposited data

Results flagged for a closer look

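The change of *Il7r* from ETP to DN2 differed between the ages in the probe set 1448575_at, fetal minus adult -1.513 log2, by the interaction term in limma (adjusted p = 0.00155). It was the one difference of this kind called among the 18 probe sets. The second probe set gave -1.74 log2 and was not called.

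*Ccnd3*, the D cyclin gene, differed in the same way in 1415907_at. Its change from ETP to DN2 was smaller in fetal cells by -2.121 log2 (limma interaction, adjusted p = 0.0298), a call lost without any of 9 of the 18 arrays and without the fetal arrays numbered 1 (-2.10 log2). Its change from ETP to DN3 differed by -2.507 log2 (adjusted p = 0.00425), and this call held without each array in turn but not without the fetal arrays numbered 1 (-2.373 log2).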

How the results depend on the processing

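The counts of called probe sets among the 18 moved as follows. Array weights gave 5 instead of 0 for fetal against adult DN2, 1 instead of 0 for the adult and for the fetal step from DN2 to DN3, and 2, 2 and 1 instead of 1, 0 and 0 for the differences between ages in the changes from ETP to DN2, from DN2 to DN3 and from ETP to DN3. With these weights the calls over all 22626 probe sets also went from 779 to 3411 for fetal against adult DN2, from 210 to 1913 and from 559 to 645 for the adult and the fetal step, and from 180 to 1140, 124 to 601 and 564 to 881 for the differences between ages. The arrays of the compared groups alone gave 3 instead of 6 for adult ETP to DN2 and for adult ETP to DN3, 0 instead of 3 for fetal ETP to DN2, and 2 instead of 1 for the first difference between ages, while the calls over all probe sets went from 1374 to 354, from 2435 to 1104, from 220 to 44 and from 180 to 105. No limit on the fold gave 1 instead of 0 for fetal against adult DN2 and for fetal DN2 to DN3 (over all, 939 instead of 779 and 624 instead of 559). Without adult DN3 replicates 2 and 3 the counts were 1 for fetal against adult DN2, 2 for fetal against adult DN3, 2 for adult DN2 to DN3, 2 for the first difference between ages and 1 for the second, with 721, 913, 763, 182 and 429 over all probe sets. Leaving out 1 array at a time gave 0 to 1 for fetal against adult DN2, 0 to 2 for DN3, 0 to 3 for adult DN2 to DN3, and 1 to 2, 0 to 1 and 0 to 1 for the differences between ages in the order above.

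The sign turned for *Stat5a* 1450259_a_at without adult DN3 replicates 2 and 3 (0.181 log2 for fetal against adult DN3, -0.132 log2 for adult DN2 to DN3), for *Socs2* 1418507_s_at without them (-0.21 log2, adult ETP to DN3), and for *Socs2* with array weights (-1.289 log2, difference between ages from DN2 to DN3). None of these was a call, and the cause was not tested. The replicate block changed 1 call among the members, *Il7r* 1448576_at in fetal against adult ETP (1.08 log2, then called), where the numbers do not pair the arrays, and left 7 of 18 regulated in place of 8. One-way ANOVA, the methods' test, gave 9 of 18 unadjusted and 7 adjusted, beside 4962 and 3352 of all 22626. Centred values carry no levels, so dim probe sets could not be told apart.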
